A study of Rattus norvegicus with 16 samples.

Results

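Cytochrome P450 genes are described here, defined as every gene symbol that begins with Cyp followed by a digit. By that rule 74 of the 17055 gene symbols counted in rat liver were P450 genes. Livers were taken from male Sprague-Dawley rats aged 10 weeks, with 12 rats in a group, 8 h after the abdomen had been opened. Rats of the Isoflurane + sepsis group had cecal ligation and puncture (CLP), in which the tied and pierced cecum releases gut bacteria into the abdominal cavity, and rats of the Isoflurane control group had the sham operation. Both of these groups were induced and maintained with isoflurane. The Propofol + sepsis and Propofol control groups had the same operations but were induced with ketamine and xylazine and then maintained with propofol, so a difference between the anesthetics cannot be told apart from one between the induction drugs. It cannot be told apart from the lipid in which propofol is given, which the paper names as a possible influence on metabolism. Nor can it be told apart from the series of libraries, because the libraries of each anesthetic carry a series name of their own. Livers of 3 rats went into each library, and each group had 4 libraries, numbered 1 to 4 in the septic and 5 to 8 in the sham rats under isoflurane, and 9 to 12 in the septic and 13 to 16 in the sham rats under propofol, so all p-values measure the spread between pools of rats. In such bulk tissue, fewer cells of a type and less RNA per cell cannot be told apart.

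P450 enzymes are heme proteins that insert an oxygen atom into their substrates, with electrons handed over by the reductase Por in the endoplasmic reticulum and by ferredoxin in mitochondria. In hepatocytes the Cyp1, Cyp2 and Cyp3 families oxidize drugs and other foreign compounds, Cyp4 enzymes oxidize fatty acids and eicosanoids, and Cyp7a1, Cyp7b1, Cyp8b1, Cyp27a1 and Cyp39a1 turn cholesterol into bile acids. Their transcription is driven largely by ligand-activated receptors such as the xenobiotic receptors CAR (Nr1i3) and PXR (Nr1i2) and the aryl hydrocarbon receptor (Ahr), and a general loss of P450 transcripts is a known feature of the acute phase response.

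Most P450 genes that changed after sepsis fell, under each anesthetic. Of the 74 genes, 7 (Cyp11a1, Cyp11b1, Cyp11b3, Cyp19a1, Cyp24a1, Cyp2g1 and Cyp4f5) were at 0 in every library, and 6 had between 1 and 9 reads in all (Cyp2a3 with 9, Cyp11b2 and Cyp2b12 with 2 each, and Cyp2b15, Cyp2b21 and Cyp4f40 with 1 each). The other 61 were tested by edgeR's quasi-likelihood test on read counts, and a gene was called where the Benjamini-Hochberg adjusted p over all genes tested was below 0.05. In Isoflurane + sepsis 28 of the 61 were lower (45.9%) and 7 were higher (11.5%), whereas of all genes tested 19.8% were lower and 21.2% higher. In Propofol + sepsis 24 were lower (39.3%) and 4 higher (6.56%), against 16.6% and 15.5% of all genes (32.1% in either direction). Counts within the shorter lists and clusters below are to be read against these shares of all genes. The median log2 fold change of the 61 genes was -0.36 under isoflurane and -0.16 under propofol, where the medians over all genes were 0.01 and 0.03. Every library after sepsis lay below every control library for 30 of the 61 genes under isoflurane and for 22 under propofol, which of all genes was so for 21.8% and 17.9%. Fewer genes were above their controls in the same complete way, 8 under isoflurane and 4 under propofol (20.3% and 17.5% of all genes). DESeq2 called 29 lower and 8 higher under isoflurane and 23 lower and 4 higher under propofol. In a fit of all 16 libraries the numbers were 33 lower and 8 higher under isoflurane (22.1% and 22.6% of all genes) and 16 lower and 3 higher under propofol (15.8% and 17% of all genes).

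The same genes were often called under both anesthetics. No library is shared between these comparisons. Lower in both were 19 genes, 67.9% of those lower under isoflurane and 79.2% of those lower under propofol, and higher in both were 4, namely Cyp1b1, Cyp27b1, Cyp3a9 and Cyp4b1. No P450 gene was called in opposite directions. Over all genes the corresponding shares for falls were 57.6% and 68.5%, and those for rises 50.9% and 69.5%.

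**Figure D1:**
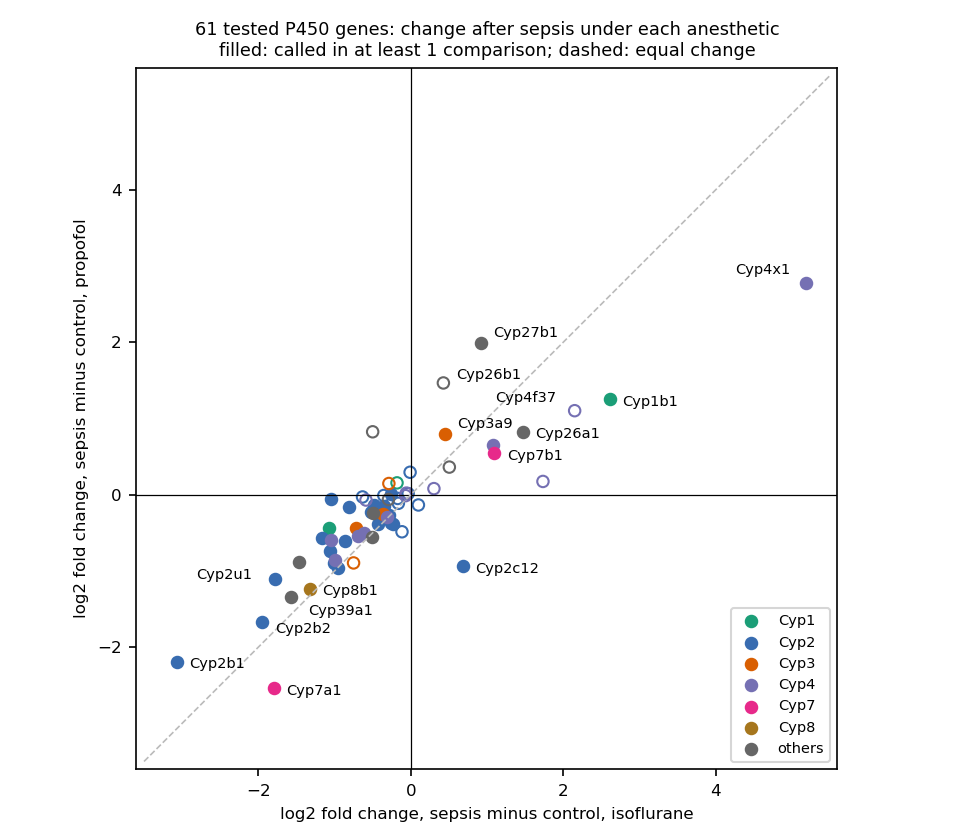
Log2 fold change of the 61 tested P450 genes after sepsis under isoflurane (x axis) and under propofol (y axis), 1 point per gene, coloured by family and filled where the gene was called in at least 1 of the comparisons. Most filled points lie below 0 on both axes, with Cyp2b1 lowest under isoflurane (-3.07) and Cyp7a1 lowest under propofol (-2.54), and Cyp2c12 lies at 0.68 under isoflurane, or at -0.08 without library 4, and at -0.94 under propofol.

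The loss was visible in the reads that P450 genes took from the library as a whole. All 74 genes together held 1.767% ± 0.0158 of the reads on genes in the Isoflurane control group and 1.189% ± 0.0684 in Isoflurane + sepsis (SD, n = 4 libraries). In the Propofol control group the share was 1.69% ± 0.102 and in Propofol + sepsis 1.292% ± 0.0958. Library 4 had the lowest share of all, 1.088%, and no library after sepsis reached the lowest control, library 16 with 1.58%. Cyp2 genes carried most of these reads, 1.206% ± 0.00479 in Isoflurane control and 0.799% ± 0.0646 in Isoflurane + sepsis, and under propofol 1.097% ± 0.0711 and 0.8041% ± 0.0617. The Cyp4 share was 0.189% ± 0.0135 in Isoflurane control and 0.2847% ± 0.0274 in Propofol control, and after sepsis 0.1517% ± 0.0332 and 0.2545% ± 0.0254, with libraries that overlapped their controls. Among the 27 genes with a mean of at least 100 CPM (reads per 1e6 reads on genes) over the 16 libraries, 14 were lower and 1 higher under isoflurane and 17 lower and 1 higher under propofol, where 21.8% and 22.8% of all genes at that level were lower.

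**Figure D2:**
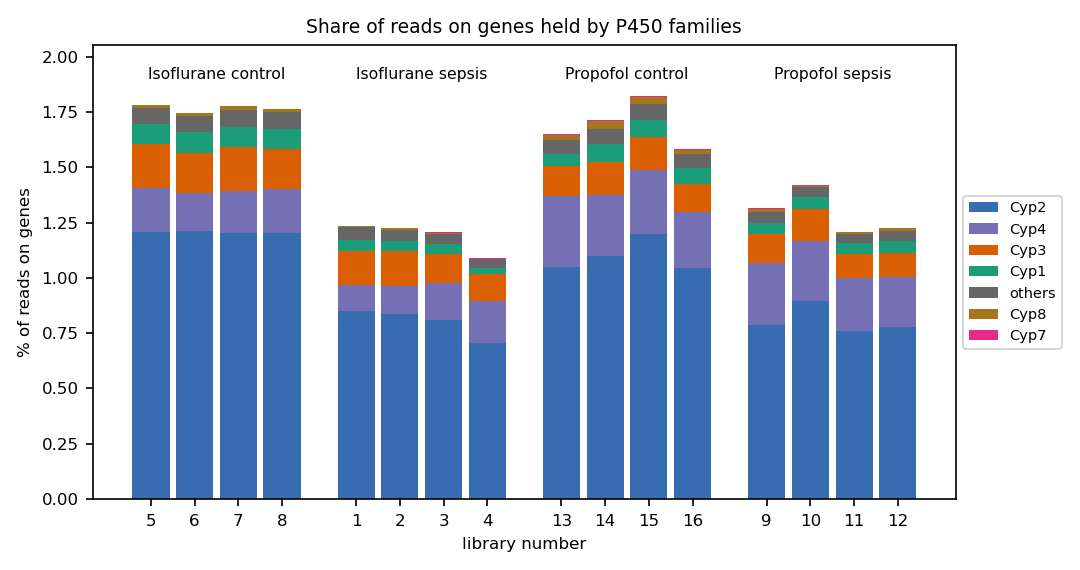
Percent of the reads on genes held by each P450 family (stacked bars, y axis from 0) in each of the 16 libraries (x axis, by number), arranged by group. The bars of the control libraries reach between 1.58% and 1.82%, and those of the sepsis libraries between 1.088% and 1.418%.

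The libraries held from 14199422 to 49937173 reads within genes. Markers of hepatocytes were present in every library, with a summed level of 102000 to 155300 CPM, where CPM are scaled by TMM over the 16 libraries. Under isoflurane 3 of 12 hepatocyte markers were lower and 1 higher, and under propofol 4 were lower and 2 higher. Of 9 measured neutrophil and monocyte markers 6 were higher under isoflurane (summed level 55.0 to 153.7 CPM against 29.99 to 34.41 in controls) and 5 under propofol (61.72 to 84.95 against 36.57 to 50.04). Of 9 pericentral hepatocyte markers that are not P450 genes 3 were lower under isoflurane (530.5 to 819.6 CPM against 820.8 to 959.2) and 2 under propofol (955.9 to 1144 against 1120 to 1661), and of 10 periportal markers 4 were lower under isoflurane, and 3 lower and 1 higher under propofol. Kupffer cell markers were called higher for 4 and lower for 1 of 6 under isoflurane and for 2 and 1 under propofol, and lymphocyte markers higher for 2 of 9 under isoflurane and lower for 1 under propofol. Endothelial markers were lower for 4 of 7 and for 2 of 7 (1 was higher under propofol), cholangiocyte markers lower for 1 of 4 in each comparison (1 was higher under isoflurane), and stellate cell markers higher for 2 and lower for 1 of 7 under isoflurane and higher for 1 and lower for 3 under propofol. No measured marker was at 0 in all libraries, and the part of cell composition in the P450 results was not tested. Among the Isoflurane + sepsis libraries, library 4 was the lowest for 29 of the 61 P450 genes. It was the highest for 17, and library 2 was the highest for as many. For some genes, though not for all that it moved, values are given below without library 4 as well.

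Cyp2b1 and Cyp2b2, which had the deepest falls under isoflurane among the called genes and were exceeded under propofol by Cyp7a1 (-2.54), are the phenobarbital-inducible oxidases of drugs and steroids that are classical targets of CAR. Cyp2b1 and Cyp2b2 are neighbouring copies, and reads could have been divided between them. The 250 bases before each transcription start (RefSeq, build GRCr8, strand +, chr1:90645869-90646118 for Cyp2b1 and chr1:90722031-90722280 for Cyp2b2) are shown because these genes moved together and because the letters show how alike the copies are. Capitals mark matches, on either strand, to the core site of the aryl hydrocarbon receptor (GCGTG), to the C/EBP motif TTGCNNAA and to the D-box TTATGNAA of Dbp and its relatives; TTGCATAA is a match to both of the last ones, which overlap there.
Cyp2b1: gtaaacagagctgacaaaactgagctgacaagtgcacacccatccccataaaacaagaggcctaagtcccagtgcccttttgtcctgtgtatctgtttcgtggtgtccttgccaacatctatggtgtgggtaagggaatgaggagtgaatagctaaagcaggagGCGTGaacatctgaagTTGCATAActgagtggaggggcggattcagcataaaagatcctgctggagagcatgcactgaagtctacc
Cyp2b2: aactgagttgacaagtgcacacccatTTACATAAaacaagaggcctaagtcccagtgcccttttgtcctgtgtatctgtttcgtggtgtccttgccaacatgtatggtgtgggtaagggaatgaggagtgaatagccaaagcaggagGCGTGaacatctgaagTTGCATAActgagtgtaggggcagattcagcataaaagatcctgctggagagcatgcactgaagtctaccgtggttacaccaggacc
With the Cyp2b2 window shifted by 17 bases, 225 of the 233 bases that can be compared were identical (96.6%). Neither window holds AGGTCA, the hexamer bound by nuclear receptors and the fourth motif that was searched. Of the 59 P450 genes with such a window 21 held AGGTCA, 16 GCGTG, 16 TTGCNNAA and 6 TTATGNAA, that is 35.6%, 27.1%, 27.1% and 10.2%, and of all windows of this length 14.1%, 25.9%, 9.22% and 3.28% held them. A P450 gene was counted where any of its windows held the motif, whereas the shares of all windows count each window alone. The shares are therefore not counted alike, and a gene with several windows had more chances to hold a motif. A match describes letters only.

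In Isoflurane + sepsis libraries 1 to 4 Cyp2b1 was at 60.1, 73.5, 46.1 and 8.78 CPM, and in the Isoflurane control libraries at 405.1, 364.2, 435.3 and 389.8. Propofol + sepsis libraries held 141.6, 128.1, 97.7 and 141.8 CPM and Propofol control libraries 503.5, 606.8, 832.4 and 372.3. All sepsis libraries were far below all control libraries of the same anesthetic, and library 4 was the lowest of the 16. The log2 fold change was -3.07 (standard error 0.495, adjusted p = 0.00124 from edgeR) under isoflurane and -2.19 (0.230, adjusted p = 0.000189) under propofol. For Cyp2b1 and for each gene whose groups are said below not to overlap, the exact permutation test on CPM gave a two-sided p of 0.0286, the smallest that 4 libraries against 4 allow. Cyp2b2 fell likewise, from between 227.7 and 261.1 CPM to 111.5, 80.0, 49.0 and 11.6 under isoflurane (log2 fold change -1.95, adjusted p = 0.0128 from edgeR) and from between 300.1 and 455.1 to 129.5, 137.0, 86.2 and 126.0 under propofol (-1.67, adjusted p = 0.000125). Without library 4 the isoflurane values were -2.73 for Cyp2b1 and -1.60 for Cyp2b2, still called. Cyp2b1 had between 1.24 and 1.83 reads per read of Cyp2b2 in control libraries and between 0.539 and 1.13 after sepsis. Taken as a sum, which does not depend on how reads were divided between Cyp2b1 and Cyp2b2, both copies reached 643 ± 39.8 CPM in Isoflurane control and 110.1 ± 68.2 in Isoflurane + sepsis, and 958 ± 258 and 247 ± 42.1 under propofol (SD, n = 4). Reads that were dropped because they match both copies, or that went to other relatives, would be missing from the sum. Cyp2b3, a close relative named after its values were seen, also fell under both anesthetics (-0.87 and -0.61).

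Of the 10 tested genes in the list of drug oxidases induced through CAR or PXR, 7 were lower and 1 higher under isoflurane and 6 lower and 1 higher under propofol. Of all genes 19.8% were lower and 21.2% higher under isoflurane, and 16.6% and 15.5% under propofol. Cyp2c6v1 was at 982.4, 866.9, 846.9 and 823.5 CPM in Isoflurane + sepsis and at 1732 to 1922 in controls, lower by -1.06 on the log2 scale (standard error 0.0787, adjusted p = 3.5e-05 by edgeR). Under propofol it went from between 1265 and 1470 CPM to between 743.4 and 902.1, by -0.73 (adjusted p = 0.000148). Its groups did not overlap in either comparison. Cyp2c7, which is more abundant in female rat liver, was lower by -0.95 under isoflurane and -0.96 under propofol (adjusted p = 0.0169 and 7.3e-05), and library 4, at 1242 CPM, was the highest of its group, in which the others had 451.6 to 645.5. Without library 4 its fall under isoflurane was -1.33. Reads of the Cyp2c genes could be divided between copies, so values of single members are uncertain in that respect.

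Cyp3a2 and Cyp3a9, which belong to the main steroid- and drug-oxidizing subfamily, went in opposite directions. Cyp3a2 was at 977.6, 828.8, 598.8 and 470.5 CPM in Isoflurane + sepsis and at 1105 to 1282 in controls (-0.72, adjusted p = 0.0155 from edgeR), and under propofol the groups overlapped, at 590.4 to 883.1 and 873.0 to 1074 (-0.44, adjusted p = 0.0288). That propofol call was lost without library 11, 12, 13, 14 or 15 (adjusted p between 0.0518 and 0.0829) and when the 16 libraries were fitted together (0.0814). Cyp3a9 rose under propofol, from 144.2, 134.2, 173.2 and 139.1 CPM to 237.7, 202.0, 298.4 and 295.1, a rise of 0.80 on the log2 scale (standard error 0.138, adjusted p = 0.00201 by edgeR). Under isoflurane it rose from between 298.9 and 345.1 CPM to 375.1, 416.4, 381.9 and 595.4, by 0.44 (adjusted p = 0.0333), and by 0.27 without library 4 (adjusted p = 0.0152). The isoflurane call of Cyp3a9 was lost without library 2, 5, 6, 7 or 8 (adjusted p between 0.0561 and 0.106) and with scaling by totals (0.0618). Cyp3a18 was not called in either comparison, with 227.3 to 437.2 CPM in Isoflurane + sepsis and 392.9 to 465.2 in its controls. Cyp3a23/3a1, the form known as strongly inducible through PXR, had under 1.3 CPM in every library and was not called, at -0.75 under isoflurane (adjusted p = 0.0698) and -0.89 under propofol (adjusted p = 0.144), and its isoflurane result was called without library 5 (0.0401) and with thinned counts (0.0291). It is a neighbour of Cyp3a2, and reads that match several Cyp3a genes could have been divided or lost. Its low count therefore need not mean a low level of RNA.

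Genes inducible through the aryl hydrocarbon receptor did not move as a group. Cyp1a2, a major hepatic oxidase of aromatic amines and caffeine, fell from 900.8, 963.0, 964.5 and 946.5 CPM to 533.4, 495.1, 481.1 and 269.3 under isoflurane. Propofol control libraries had 518.4, 743.2, 744.4 and 701.6 CPM and Propofol + sepsis libraries 501.6, 526.2, 452.2 and 532.2, so 1 control lay within the range after sepsis. The log2 fold changes were -1.07 (standard error 0.183, adjusted p = 0.00166 from edgeR) and -0.44 (0.115, adjusted p = 0.0169), and the propofol call was lost without library 14 (0.0532) and in a fit of all 16 libraries (0.0543). Cyp1b1, which is expressed mainly outside hepatocytes, rose from 0.283, 0.0492, 0.0467 and 0.0420 CPM to 0.545, 0.453, 0.569 and 0.825 under isoflurane (log2 fold change 2.61, adjusted p = 0.00515 from edgeR). That is 10 reads in 4 libraries against 43, and library 5 held 6 of the 10. Under propofol it rose by 1.25 (14 against 41 reads, adjusted p = 0.0461), a call lost under DESeq2 (0.105), with thinned counts (0.0701), in a fit of all 16 libraries (0.0677), with every gene of at least 1 read tested (0.0513) and without any library but 10 (0.0668 to 0.119). Cyp1a1 was low and spread, between 0.118 and 3.10 CPM in Isoflurane + sepsis and between 1.17 and 1.97 in its controls, and was not called (-0.18, adjusted p = 0.827).

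**Figure D3:**
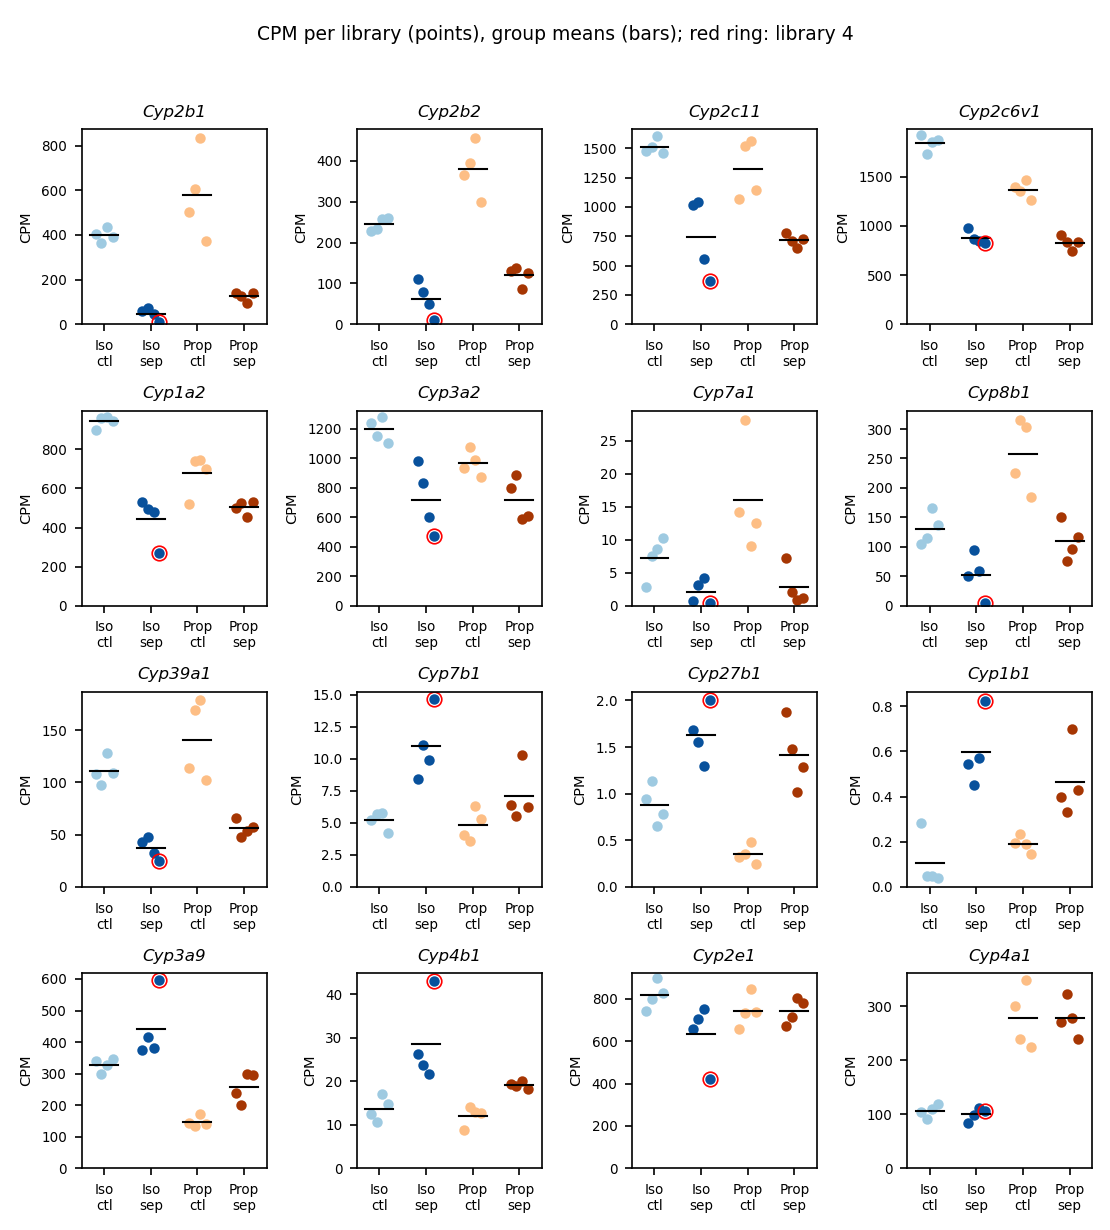
CPM per library (y axes, linear and from 0) of 16 P450 genes in the 4 groups (x axes; ctl, control; sep, sepsis), with 1 point per library, a bar at the group mean and a red ring on library 4. Points after sepsis lie below those of controls for Cyp2b1, Cyp2b2 and Cyp39a1 under both anesthetics and above them for Cyp3a9 and Cyp27b1, while Cyp4a1 is separated by anesthetic only, at 83.5 to 119.2 CPM under isoflurane and 224.8 to 347.6 under propofol.

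Sexually dimorphic P450 genes, set by the pattern of growth hormone release, included falls in both of their classes. Of 6 male-predominant genes 4 were lower in each comparison. Cyp2c11, the main male form and a testosterone hydroxylase, was at 1018, 1039, 559.6 and 370.1 CPM in Isoflurane + sepsis against 1456 to 1600 in controls, and at 653.3 to 781.8 in Propofol + sepsis against 1064 to 1563. It fell by -1.01 (standard error 0.282, adjusted p = 0.0177 from edgeR) and -0.89 (0.128, adjusted p = 0.000810), with no overlap between the groups. Of 4 female-predominant genes 2 were lower and 1 higher under each anesthetic. Cyp2c12, the main female form, was at 109.3, 75.3, 99.6 and 356.0 CPM in Isoflurane + sepsis and 88.2 to 117.9 in controls, and was not called (0.68, adjusted p = 0.240 from edgeR; -0.08 and 0.699 without library 4). Under propofol it was lower, at 66.7 to 117.8 CPM against 115.7 to 228.6 (-0.94, adjusted p = 0.00990 from edgeR), and this call was lost in a fit of all 16 libraries (0.0690). Library 4 held 0.962 reads of Cyp2c12 per read of Cyp2c11, where the medians of the 4 groups were between 0.0652 and 0.143. Every other library had at most 228.6 CPM of Cyp2c12.

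Cyp2e1, the ethanol- and ketone-inducible oxidase of small molecules such as acetaminophen, was among the abundant genes with no call. It had 658.6, 706.2, 751.2 and 421.6 CPM in Isoflurane + sepsis and 745.1, 800.6, 897.8 and 825.9 in controls (log2 fold change -0.35, standard error 0.163, adjusted p = 0.110 from edgeR), and 672.4 to 804.2 against 659.7 to 845.9 under propofol (-0.01, standard error 0.0894, adjusted p = 0.944). The ranges overlapped in both comparisons. In a fit of all 16 libraries the isoflurane difference was called (adjusted p = 0.0421, in a range of 0.0421 to 0.205). Cyp2c22, at 1644 to 2751 CPM in Isoflurane + sepsis and 2225 to 2543 in controls, and Cyp2c23, an arachidonic acid epoxygenase at 660.6 to 738.2 and 628.9 to 667.6, were not called under either anesthetic, although Cyp2c23 was lower under propofol without library 10 (-0.20, adjusted p = 0.0332 from edgeR). Of 5 measured epoxygenases 3 were lower under isoflurane and 1 under propofol. Cyp2j3, another of them, was not called in either. Of the 5 Cyp2d genes 2 were lower under isoflurane and 3 under propofol. Cyp2d5 was called in both, at -0.43 under isoflurane (adjusted p = 0.0197 from edgeR), not called without library 8 (0.0637), and -0.38 under propofol. Cyp2u1, an orphan fatty acid hydroxylase near the lower end of the counts, fell by -1.78 and -1.10 (1.40 to 1.55 CPM in Isoflurane control and 0.259 to 0.793 after sepsis).

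Cyp4a genes, which encode the fatty acid omega-hydroxylases and are known targets of PPARalpha, were for the most part not called after sepsis. Cyp4a1 was at 83.5, 99.2, 110.7 and 106.5 CPM in Isoflurane + sepsis and 104.1, 90.5, 109.0 and 119.2 in controls (log2 fold change -0.07, standard error 0.112, adjusted p = 0.670 from edgeR). Under propofol it was at 271.3, 321.6, 277.3 and 239.6 CPM after sepsis and 300.2, 239.7, 347.6 and 224.8 in controls (-0.01, standard error 0.142, adjusted p = 0.958). Neither sepsis group could be separated from its controls, and the libraries of the anesthetics did not overlap at all. Of the 4 Cyp4a genes Cyp4a8, named after its values were seen, was called lower under isoflurane (-1.04, adjusted p = 0.0151 from edgeR), and under propofol it was at -0.59 (adjusted p = 0.0972). Cyp4a2 and Cyp4a3 are near copies whose reads could be divided, and neither was called after sepsis. Under isoflurane Cyp4a2 was at -0.59 (adjusted p = 0.102 from edgeR), but it was called lower without library 4 (-0.85, adjusted p = 0.0136) and in a fit of all 16 libraries (0.0401). Cyp4a2 had 0.424 to 0.676 reads per read of Cyp4a3 in Isoflurane + sepsis and 0.927 to 1.20 in its controls, with no overlap, and 1.27 to 1.77 and 1.21 to 1.92 under propofol. Among the Cyp4f genes, which inactivate leukotrienes, 3 of 6 tested were lower under each anesthetic. Cyp4f4, named after its values were seen, fell from between 56.3 and 71.8 CPM to between 17.0 and 41.8 under isoflurane (-0.99) and from between 69.5 and 76.9 to between 34.3 and 49.6 under propofol (-0.86). Cyp4b1, a fatty acid and arylamine oxidase that is more typical of lung, rose from 12.5, 10.6, 17.0 and 14.8 CPM to 26.3, 23.7, 21.6 and 43.2 under isoflurane (1.07, standard error 0.226, adjusted p = 0.00477 from edgeR). Under propofol it rose from 8.89, 14.01, 12.9 and 12.7 CPM to 19.4, 18.9, 20.1 and 18.2 (0.65, adjusted p = 0.00345). The groups of Cyp4b1 did not overlap, and without library 4 the isoflurane rise was 0.81, still called. Cyp4x1, an orphan enzyme known mainly from brain and named after its values were seen, had 2 reads over the 4 Isoflurane control libraries and 58 after sepsis, or 43.2 times as many once library sizes are allowed for (95% interval 11.4 to 365, counting error only), and 33 of the 58 were in library 4. Under propofol it had 4 and 35 reads and was not called, and 25 of the 35 were in library 10.

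Of 6 bile acid synthesis genes 2 were lower and 1 higher under isoflurane, and 4 were lower under propofol. Cyp7a1, the rate-limiting enzyme of bile acid synthesis, was at 7.27, 2.14, 0.915 and 1.20 CPM in Propofol + sepsis and 14.3, 28.2, 9.06 and 12.5 in Propofol control. In Isoflurane + sepsis it was at 0.744, 3.10, 4.19 and 0.353 CPM and in Isoflurane control at 2.83, 7.58, 8.54 and 10.2. The propofol groups did not overlap, whereas library 5 lay within the range of the Isoflurane + sepsis libraries. The log2 fold change was -2.54 (standard error 0.594, adjusted p = 0.00965 from edgeR) under propofol and -1.80 (0.612, adjusted p = 0.0402) under isoflurane. That isoflurane call was lost under DESeq2 (0.0562) and without library 1, 2, 4, 6, 7 or 8 (0.0506 to 0.109, in a range of 0.0166 to 0.109). Cyp8b1, the sterol 12-alpha-hydroxylase that sets the amount of cholic acid, was at 150, 76.5, 95.9 and 116.3 CPM in Propofol + sepsis and 225.6, 315.9, 304.0 and 184.1 in its controls (-1.24, standard error 0.227, adjusted p = 0.00283 from edgeR; 0.0691 in a fit of all 16 libraries). Under isoflurane it was at 50.8, 94.3, 58.3 and 4.48 CPM against 105.2, 115.6, 165.1 and 137.4, with no overlap. With library 4 far below the other three, the fall of -1.32 was not called (standard error 0.612, adjusted p = 0.112), and without that library it was -0.94 and called (adjusted p = 0.00932), as it was in a fit of all 16 libraries (0.0419).

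Cyp39a1, the 24-hydroxycholesterol 7-alpha-hydroxylase, was the clearest fall in this group, with 43.1, 48.2, 32.7 and 24.6 CPM in Isoflurane + sepsis against 97.5 to 127.9 (-1.57, standard error 0.187, adjusted p = 0.000275 from edgeR). Propofol + sepsis libraries held 47.8 to 65.7 CPM against 102.2 to 178.9 (-1.34, standard error 0.188, adjusted p = 0.000708). The groups did not overlap in either comparison. Cyp27a1, the mitochondrial sterol 27-hydroxylase, was lower under propofol, at 85.4 to 107.7 CPM against 121.6 to 145.6 (-0.55, adjusted p = 0.00171 from edgeR; 0.0542 in a fit of all 16 libraries). Under isoflurane it was at 131.6, 187.2, 163.9 and 67.7 CPM against 175.4 to 212.4 and was not called (-0.50, adjusted p = 0.142). Cyp7b1, the oxysterol 7-alpha-hydroxylase of the alternative route, rose from 5.23, 5.71, 5.79 and 4.18 CPM to 8.43, 11.1, 9.93 and 14.7 under isoflurane (1.10, standard error 0.184, adjusted p = 0.00154 from edgeR). Under propofol the libraries overlapped, at 5.57 to 10.3 CPM after sepsis and 3.62 to 6.33 in controls (0.54, adjusted p = 0.101). Cyp7a1 had between 0.541 and 7.79 reads per read of Cyp7b1 in control libraries and between 0.0241 and 1.13 after sepsis. Cyp46a1, a brain cholesterol hydroxylase, had under 1.4 CPM in every library and was not called.

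Of 3 vitamin D enzymes 1 was higher and 1 lower in each comparison, and the lower gene was not the same under both anesthetics. Cyp27b1, which makes the active hormone calcitriol and is best known from kidney and activated macrophages, rose under both anesthetics. It was at 1.69, 1.55, 1.29 and 2.00 CPM in Isoflurane + sepsis and 0.942, 1.13, 0.654 and 0.777 in controls (0.92, standard error 0.230, adjusted p = 0.0108 from edgeR). In Propofol + sepsis it was at 1.87, 1.48, 1.02 and 1.29 CPM and in controls at 0.324, 0.350, 0.479 and 0.242 (1.99, standard error 0.328, adjusted p = 0.00161). No sepsis library overlapped its controls. Cyp2r1, the vitamin D 25-hydroxylase, fell under isoflurane from between 2.79 and 2.99 CPM to between 0.776 and 1.74 (-1.16, adjusted p = 0.00270 from edgeR) and was not called under propofol, at 1.67 to 1.78 against 1.93 to 3.31 (-0.56, adjusted p = 0.0781). Cyp26a1, which degrades retinoic acid, was at 1.34, 1.29, 2.84 and 5.89 CPM in Isoflurane + sepsis and 0.924 to 1.13 in controls (1.47, adjusted p = 0.0301 from edgeR). Its rise was 0.85 and not called without library 4 (0.0530), and the call was also lost without library 3, 5, 6, 7 or 8 (0.0553 to 0.0815) and under limma-voom (0.0656). Under propofol Cyp26a1 was not called (0.83, adjusted p = 0.0777), but it was without library 12 (0.0452) and with stricter limits on low counts (0.0451 and 0.0456). Cyp51, the lanosterol demethylase of cholesterol synthesis, was lower by -0.50 under isoflurane and -0.24 under propofol (adjusted p = 0.0206 and 0.0450 from edgeR), and the propofol call was lost without any library but 12 (0.0521 to 0.109) and when the 16 libraries were fitted together (0.148), the isoflurane call without library 8 (0.0567). Of 7 steroid-forming genes only Cyp17a1 and Cyp21a1 had enough reads to be tested. Cyp17a1, at 2.25 to 8.95 CPM, was not called, and Cyp21a1 fell under isoflurane from 79 reads over 4 libraries, 44 of them in library 8, to 17 (-1.46, adjusted p = 0.00838 from edgeR; 0.0527 with thinned counts). Cyp20a1, an orphan enzyme, was not called, except lower under isoflurane without library 1 (-0.45, adjusted p = 0.0223 from edgeR).

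Of 9 heme synthesis genes 8 were lower under isoflurane and 6 under propofol, where 19.8% and 16.6% of all genes were, and none was called higher. Alas2, the form of red cell precursors, was not called in either comparison (-0.07 and -0.39). Alas1, the rate-limiting enzyme of heme synthesis in liver, was at 74.9, 66.7, 75.7 and 73.5 CPM in Isoflurane + sepsis and 144.8 to 172.8 in controls (-1.12, standard error 0.0811, adjusted p = 3.1e-05 from edgeR). Under propofol it was at 97.6, 84.4, 49.5 and 59.1 CPM against 228.9 to 350.8 (-1.92, adjusted p = 0.000255). Of 10 measured redox partners 5 were lower under isoflurane and 6 under propofol. Por, the reductase that serves all microsomal P450 enzymes, was at 526.1, 654.4, 621.1 and 155.8 CPM in Isoflurane + sepsis against 907.3 to 983.6, and at 389.3 to 487.6 in Propofol + sepsis against 615.3 to 1013. Its fall was called under propofol (-0.77, adjusted p = 0.00476 from edgeR; 0.0595 in a fit of all 16 libraries) and not under isoflurane (-0.96, standard error 0.351, adjusted p = 0.0528), and without library 4, or without library 2, it was called there as well (0.000473 and 0.0474). DESeq2 (0.0174), limma-voom (0.0421), scaling by totals (0.0395), a fit of all 16 libraries (0.0148) and 2 other limits on low counts (0.0475 and 0.0493) called it too.

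Of 27 tested regulators of P450 genes 12 were lower and 10 higher under isoflurane, where 19.8% and 21.2% of all genes were. Under propofol 11 were lower and 4 higher, where 16.6% and 15.5% of all genes were, so the rises under propofol were near the share of all genes. Nr1i3 (CAR) was at 0.198, 0.388, 0.879 and 0.0589 CPM in Isoflurane + sepsis against 2.35 to 5.23, and at 1.02, 0.286, 0.0538 and 0.215 in Propofol + sepsis against 8.63 to 18.6. It fell by -3.40 and -5.12 (adjusted p = 0.000743 and 0.000114 from edgeR). Nr1i2 (PXR) fell by -1.28 and -0.91, their shared partner Rxra by -1.19 and -0.82, the hepatocyte factor Hnf4a by -1.07 and -0.74, the bile acid receptor Nr1h4 by -1.81 and -2.12, and the clock output factor Dbp by -2.72 and -1.92, all called by edgeR with groups that did not overlap. Ahr was lower under propofol (-1.03) and was not called under isoflurane (-0.63, adjusted p = 0.0916), where libraries 1 and 2 had 10.3 and 12.4 CPM and libraries 3 and 4 had 25.6 and 25.1. Without library 3 or 4 (0.0355 and 0.0400), under limma-voom (0.0475) and in a fit of all 16 libraries (0.0230) Ahr was called there. Ppara was not called in either comparison. Higher under both anesthetics were Bcl6, Foxa1, Nr5a2 and Rora, and higher under isoflurane were also Arnt, Cebpa, Cux2, Foxa2, Nr3c1 and Rxrb.

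**Figure D4:**
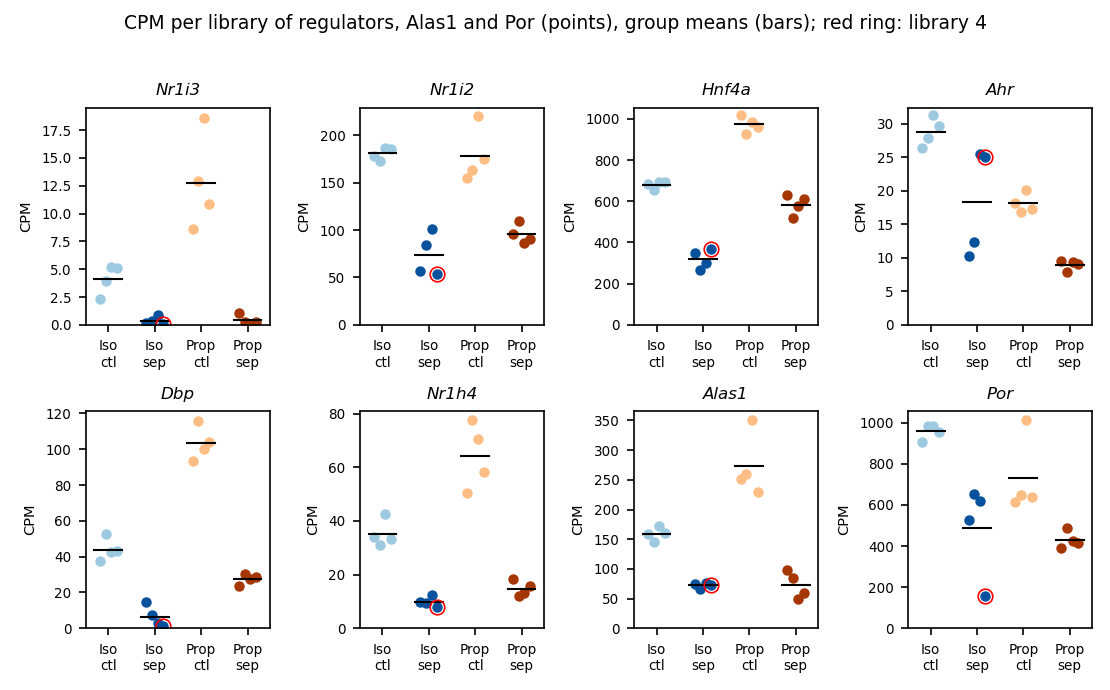
CPM per library (y axes, linear and from 0) of 6 regulators, Alas1 and Por in the 4 groups (x axes; ctl, control; sep, sepsis), with points, bars and the red ring on library 4 as for the P450 genes. Nr1i3 lies at or below 1.02 CPM in all 8 sepsis libraries, and Por of library 4, at 155.8 CPM, is the lowest of the 16.

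A difference in the response to sepsis between the anesthetics was examined by an interaction term in a fit of the 16 libraries. By edgeR 0 of the 61 P450 genes were called, where 1.43% of all genes were (0.862% more positive and 0.572% more negative under isoflurane). At an unadjusted p below 0.05 there were 8 of the 61 genes, 7 of them with a more negative change under isoflurane (Cyp2c24, Cyp2c6v1, Cyp2j10, Cyp27b1, Cyp1a2, Cyp2d1 and Cyp2j4) and 1 with a more positive one (Cyp2c12). For Cyp27b1 this was a smaller rise and not a fall, 0.92 under isoflurane and 1.99 under propofol. Of all 12756 genes 2585 had such a p, 1268 of them more negative and 1317 more positive. DESeq2 called 2, Cyp2c24 (difference by edgeR -1.01, adjusted p = 0.0794 by edgeR and 0.0300 by DESeq2) and Cyp2c6v1 (-0.34, 0.0953 and 0.0253), and limma-voom called 0. Of all 12756 genes DESeq2 called 831. Without library 1 edgeR called 5, Cyp2c24, Cyp2c6v1, Cyp1a2, Cyp2u1 and Cyp2b3, in a fit in which 11.1% of all genes were called. Cyp2c24 fell under isoflurane from between 5.96 and 7.70 CPM to between 2.17 and 4.12 (-1.05, adjusted p = 0.00215 from edgeR), and under propofol it was at 1.75 to 3.29 against 2.27 to 2.63. Among the regulators Cebpa and Cux2 had called interactions (1.22 and 2.32, adjusted p = 0.0434 and 0.0468 from edgeR). Each of these calls was lost in 12 of the 16 fits without 1 library and in other settings.

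Between the control groups, of the 61 genes 21 were higher in Isoflurane control than in Propofol control (34.4%, against 17.8% of all genes) and 8 were lower (13.1%, against 16.7%). Abundant genes at large were often higher here. Of the 27 P450 genes with a mean of at least 100 CPM 14 were higher and 6 lower. Of all genes at that level 42% were higher and 18.4% lower. Scaling by library totals only, without TMM, gave 17 higher and 15 lower, and the median of all genes moved from -0.0002 to -0.15, so the direction of small differences rests on the scaling. A fit of all 16 libraries called 18 of the 61, with 15 higher and 3 lower (9.81% and 10.4% of all genes). Under the same scaling by TMM 10 of 12 hepatocyte markers and 7 of 10 periportal markers were higher in Isoflurane control. The pericentral markers that are not P450 genes went the other way as a sum, at 820.8 to 959.2 CPM against 1120 to 1661. Oat among them was higher, with a mean of 198.5 CPM against 110.7. The part of these marker differences in the P450 differences was not tested. Cyp4a1 was lower in Isoflurane control, at 90.5 to 119.2 CPM against 224.8 to 347.6, by -1.38 (standard error 0.129, adjusted p = 1.7e-05 from edgeR), and Cyp4a2 at 458.8 to 645.9 against 925.2 to 1331, by -0.86 (adjusted p = 0.000326). Cyp8b1 was lower by -0.96 (adjusted p = 0.00124) and Cyp2b2 by -0.62 (adjusted p = 0.000863), and both calls were lost in a fit of all 16 libraries (0.187 and 0.298). Cyp7a1 was lower by -1.07 (adjusted p = 0.0388), by -0.65 and not called without library 14 (0.138), and not called by DESeq2 (0.0635), limma-voom (0.0682), a fit of all 16 libraries (0.205) or without library 5, 6, 7 or 13 (0.0588 to 0.0763).
Higher in Isoflurane control were Cyp2c24 at 5.96 to 7.70 CPM against 2.27 to 2.63 (1.54, adjusted p = 6.4e-06 from edgeR), Cyp3a18 at 392.9 to 465.2 against 161.3 to 219.5 (1.22, adjusted p = 5.5e-06) and Cyp3a9 at 298.9 to 345.1 against 134.2 to 173.2 (1.16, adjusted p = 2.8e-06). Cyp2c7 was higher by 0.99 (adjusted p = 9.9e-07), Cyp27b1 by 1.30 (adjusted p = 0.00534) and Cyp1a2 by 0.49 (adjusted p = 0.00227). None of the groups of these 6 genes overlapped.

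**Figure D5:**
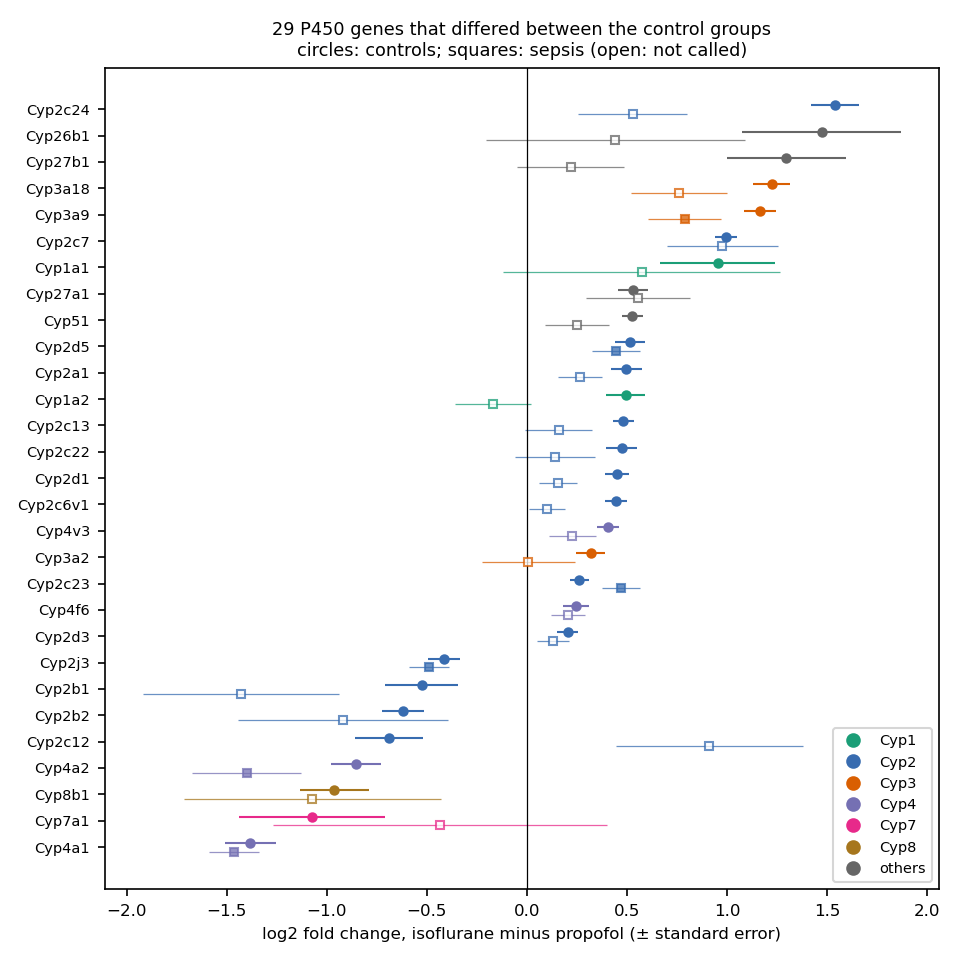
Log2 fold change of isoflurane minus propofol with its standard error (x axis) for the 29 P450 genes called between the control groups (circles), 1 gene per line and coloured by family, with the difference between the sepsis groups beside it (squares, open where not called). In the controls 21 genes lie above 0 and 8 below, and Cyp4a1 is lowest in both comparisons, at -1.38 and -1.46.

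Between the sepsis groups fewer P450 genes were called, 3 higher (4.92%, against 7.34% of all genes) and 3 lower (4.92%, against 5.41%) in Isoflurane + sepsis. The sepsis and control comparisons use different libraries. Cyp4a1 was lower by -1.46 (standard error 0.125, adjusted p = 0.00190 from edgeR) and kept its call in each fit that left out a library. Cyp4a2 was at 289.7, 226.2, 441.8 and 577.2 CPM against 880.6 to 1231 (-1.40, adjusted p = 0.0199), and Cyp2j3 at 35.3 to 42.1 against 50.2 to 63.8 (-0.49, adjusted p = 0.0214). Cyp3a9 (0.79, adjusted p = 0.0294), Cyp2c23 (0.47, adjusted p = 0.0211) and Cyp2d5 (0.45, adjusted p = 0.0449) were higher. Scaled by library totals, 1 was higher and 7 lower. Leaving out library 9, 11 or 12 left 1 call, leaving out library 3 left 3 and leaving out library 1 gave 10, and a fit of all 16 libraries gave 19 and DESeq2 13. Of the 19 genes 9 were higher and 10 lower, where that fit called 15.5% of all genes higher and 17.2% lower. DESeq2 called 2802 of all 12743 genes. Neither count of P450 genes stood out from all genes.

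P450 genes lie in tandem clusters, and falls were spread over them. By their order in the RefSeq annotation of GRCr8, 50 of the 74 genes had another P450 gene with at most 3 other protein-coding genes in between, which gave 12 clusters. In the largest, of 13 genes with Cyp2b1, Cyp2b2, Cyp2a1 and Cyp2t1, 8 were tested and 5 were lower under isoflurane and 4 under propofol. In the cluster of Cyp2c6v1, Cyp2c7, Cyp2c12, Cyp2c13 and Cyp2c22 3 and 4 of 5 were lower, and in the Cyp2d cluster 2 and 3 of 5. The cluster of Cyp4x1, Cyp4a8, Cyp4a2, Cyp4a3, Cyp4a1 and Cyp4b1 was mixed, with 1 lower and 2 higher of 6 under isoflurane and 0 lower and 1 higher under propofol. Cyp3a9 rose and its neighbour Cyp3a62 was lower under isoflurane, by -0.37 (adjusted p = 0.0189 from edgeR), so genes next to each other did not always share a direction.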

How the data were processed

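Poly(A) RNA of pooled rat livers was sequenced from 1 end with a strand-keeping protocol. The authors deposited counts, that is whole numbers of reads on each of 17055 gene symbols per library, without normalization. The submitters' processing notes name STAR and rn5, and their versions, the counting program and the annotation were not found among the sources at hand. Entries for reads outside genes (21.6% to 25.4% of reads) and ambiguous reads (1.07% to 1.35%) were left out.

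Groups were taken from the labels. Pairs of libraries of a group gave a chi-square per degree of freedom of 3.35 to 96.4, so none was a copy of another. Genes with at least 10 reads over the 16 libraries were tested with edgeR 4.0.16 (R 4.3.3), quasi-likelihood, TMM scaling, 4 libraries against 4, with Benjamini-Hochberg adjustment over all genes tested (12706 to 12756) and a limit of 0.05. The interaction used all 16. The standard error is the log2 fold change over the root of F. Scripts were tested on simulated data. Alternatives were RLE, totals alone, DESeq2 1.42.0 (named by the paper), limma-voom (limma 3.58.1), filterByExpr (10 and 15), a mean of at least 1 CPM, every gene with a read, thinned counts, all 16 libraries in 1 fit, a limit of 0.01 and each library left out. Windows before transcription starts come from RefSeq (GRCr8), which is not the build of the files, so no other coordinates are used; all 74 genes matched an entry, 1 by a synonym, and 59 had a window.

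The genes, lists and rules were chosen with earlier results of these data known. Named genes are 18 fixed ones, in each sepsis comparison the 8 largest called rises and falls at 1 CPM or more, up to 8 called interactions, the 3 largest called differences each way between anesthetics, the gene with the most reads in each family, and called genes of the lists. Other genes were named after their values were seen.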

Additional observations from a re-analysis of the deposited data

Results flagged for a closer look

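In groups of 4 libraries a library was singled out where its gap to the nearest other, over the whole range of the group, was above Dixon's limit of 0.829. Of 146 groups of named P450 genes 7 were, and chance alone singles out about 1 in 20 groups. Cyp2c12 was at 356.0 CPM in library 4 (Isoflurane + sepsis), where the others had 75.3 to 109.3. Cyp1b1 was at 0.283 CPM in library 5 (Isoflurane control), where the others had 0.0420 to 0.0492, and Cyp17a1 was at 2.50 CPM in the same library, below the 4.08 to 4.41 of the others. Cyp2j3 was at 63.8 CPM in library 9 (Propofol + sepsis) against 50.2 to 51.7, and Cyp46a1 at 1.33 CPM in library 10 of that group against 0.162 to 0.284. Cyp11b2 had its 2 reads in library 2 (0.0647 CPM) and library 9 (0.0568 CPM) and 0 in the others of those groups. A group with reads in only 1 library always has a ratio of 1. These 2 of the 7 were thus singled out by construction and say nothing about spread.

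By edgeR's interaction test 2 genes of the lists were called for a different response to sepsis between the anesthetics. They were Cebpa (1.22 on the log2 scale, isoflurane minus propofol, adjusted p = 0.0434) and Cux2 (2.32, adjusted p = 0.0468). The call of Cebpa was lost in 13 of 24 other settings and that of Cux2 in 14, limma-voom among them for both. Cebpa was at 73.8 to 163.0 CPM in Isoflurane + sepsis and 37.2 to 51.8 in its controls, and at 44.5 to 60.5 and 50.7 to 58.4 under propofol. Cux2 was at 20.97, 21.2, 44.2 and 93.4 CPM in Isoflurane + sepsis and 4.58 to 10.6 in its controls, and at 21.8 to 30.6 and 20.5 to 30.5 under propofol.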

How the results depend on the processing

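No paired analysis was possible because the labels number the samples 1 to 16 and no groups share a number. At a limit of 0.01 the P450 genes called under isoflurane were 4 higher and 15 lower, and 1 was called between the sepsis groups. The interaction gave 2 genes by DESeq2 and between 0 and 5 when a library was left out, the 5 without library 1. Between the control groups 18 were called in a fit of all 16 libraries. Between the sepsis groups DESeq2 called 13 (2802 of all 12743 genes) and a fit of all 16 libraries 19 (of all genes 15.5% were higher and 17.2% lower). The fits without 1 library called between 1 and 10. Without a library the lower calls numbered 22 to 29 under isoflurane and 17 to 23 under propofol, and of the 28 and 24 genes called lower 22 and 17 kept their call in each such fit. The fall of the P450 share of reads, -0.58 percentage points under isoflurane and -0.40 under propofol, was -0.84 and -0.54 without the 10 most abundant genes in the total. Of the 68 results of named P450 genes that were called, none changed sign in any setting, and 16 lost their call in a fit of all 16 libraries, 17 without 1 library, 5 with totals alone, 4 under DESeq2 and 3 under limma-voom. Of the 32 results of named P450 genes after sepsis that were not called, 13, of 10 genes, changed sign in at least 1 setting. Under isoflurane the ranges with 1 library left out were -0.88 to 0.19 for Cyp1a1 (0.19 without library 4), -0.077 to 0.88 for Cyp2c12 (-0.077 without library 4), -0.11 to 0.13 for Cyp2c22 (0.13 without library 4), -0.088 to 0.0065 for Cyp2j3 and -0.16 to 0.012 for Cyp4a1 (both positive without library 1). Under propofol they were -0.053 to 0.40 for Cyp1a1, -0.27 to 0.068 for Cyp2c24, -0.064 to 0.057 for Cyp2e1, -0.072 to 0.10 for Cyp2j3, -0.029 to 0.25 for Cyp3a18, -0.28 to 1.17 for Cyp46a1 (-0.28 without library 10), -0.0985 to 0.114 for Cyp4a1 and -0.17 to 0.056 for Cyp4a2. With thinned counts Cyp2c22 was at 0.0043 under isoflurane and Cyp2c24 at 0.020 under propofol, and with totals alone Cyp2j3 was at -0.030 under propofol. Under propofol Cyp2e1 was at 0.00072 with RLE, 0.00069 by DESeq2 and 0.00016 with filterByExpr, and Cyp4a1 at 0.0011 with RLE, 0.0012 by DESeq2, 0.0028 by limma-voom, 0.0028 with filterByExpr and 0.0024 at a mean of 1 CPM. The cause of these changes was not tested. Genes below 1 CPM rest on few reads, and depth limits their values.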

Other observations

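Library 4, of the Isoflurane + sepsis group, was at the edge of its group in both directions. It held the lowest Cyp2b1 (8.78 CPM), Cyp2b2 (11.6), Cyp8b1 (4.48), Cyp1a2 (269.3), Cyp2c11 (370.1), Cyp2e1 (421.6), Cyp27a1 (67.7) and Por (155.8) of the 16 libraries, and the highest Cyp2c12 (356.0), Cyp3a9 (595.4), Cyp4b1 (43.2), Cyp26a1 (5.89), Cyp7b1 (14.7) and Cux2 (93.4). The summed level of the hepatocyte markers was 124800 to 144600 CPM over the 4 libraries of the group. Without library 4, 29 P450 genes were lower and 6 higher under isoflurane, and 27 and 6 of them were also called with it. Falls that were smaller without it included those of Cyp1a2 (-0.90), Cyp2c11 (-0.78), Cyp3a2 (-0.57) and Cyp4f4 (-0.78), all still called. Cyp2e1 (-0.20) and Cyp27a1 (-0.28) were also smaller and not called, whereas the falls of Cyp2c7 (-1.33) and Cyp4a2 (-0.85) were larger.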
